A study of Mus musculus with 69 samples.

Results

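The genes described here encode the proteins of the cytosolic ribosome. They were taken by symbol, as the Rps and Rpl genes together with Rplp0, Rplp1, Rplp2 and Rpsa, and kept where their mean level over the CD8+ T cell libraries was at least 10 CPM (the counts of a gene scaled to a common total of gene counts per library and normalized between libraries). Of 24309 genes in the count tables, 85 symbols matched and 77 were kept, 31 of the small and 46 of the large subunit. All 77 had a position in the annotation, on 19 chromosomes. The lowest genes kept were Rps27l at 26.4, Rpl22l1 at 75.5 and Rpl7l1 at 80.2 CPM. The highest genes left out were Rpl34 at 6.39, Rps27 at 5.51 and Rpl30 at 3.09 CPM, and the other 5 were Rps4l, Rpl39l, Rpl10l, Rpl3l and Rpl26, the last at 0.00803 CPM.

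A ribosome reads mRNA on its small subunit and joins amino acids on its large subunit, and nearly every ribosomal protein is present in a single copy on each. Their mRNAs are among the most abundant of any cell and usually begin with a C followed by a run of pyrimidines, the 5′ terminal oligopyrimidine (TOP) tract, through which mTOR signalling and LARP1 set their translation. In T cells, ribosome production rises with activation and growth, and Myc is a well known activator of the genes for ribosome assembly. A few ribosomal proteins have paralogs (Rpl22l1 for Rpl22, Rps27l for Rps27, Rpl7l1 for Rpl7), which are kept apart from their parents below.

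The study set out to separate the transcription factors STAT5A and STAT5B, which IL-7 and IL-15 activate in T cells. Its mice carried germline alleles: WT (Stat5a+/+ Stat5b+/+), AAB (Stat5a-/- Stat5b+/-, so 1 Stat5b allele is left) and BBA (Stat5a+/- Stat5b-/-, 1 Stat5a allele left). T cells were sorted from pooled lymph nodes and spleen by CD44 and CD62L as naive (Tnv), central memory (Tcm) or effector memory (Tem) cells. They were sequenced without cytokine (NC) or after culture of 12 to 16 h with IL-7 or IL-15. The CD8+ libraries covered Tnv and Tcm under NC, IL-7 and IL-15 and Tem under NC and IL-15, with 2 libraries for each genotype. CD4+ naive cells covered NC and IL-7 with 2 or 3 libraries. In a further experiment, AAB cells labelled as CD8+ T cells activated in vitro were transduced with a retrovirus carrying constitutively active STAT5A (S5a) or a control virus (Ctl), with 2 libraries each. All mutant cells came from mice that lacked these alleles in every tissue, so effects within the T cell and effects of its surroundings cannot be told apart. By the study's methods NC cells were taken directly from the animal, whereas the labels describe culture for all, so cytokine and culture cannot be told apart either.

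Library totals ran from 5926139 to 25612758 gene counts in the CD8+ table, from 6705004 to 34118295 in CD4+ and from 11020965 to 16516525 in the retroviral table. Outside the retroviral libraries, which are given below, the targeted genes followed the labels. Stat5a lay between 0.807 and 4.9 CPM in these AAB libraries against 31.9 to 104.7 in WT. Stat5b lay between 49.3 and 135 CPM in BBA against 160 to 373 in WT. Cd8a and Cd8b1 together reached 1210 to 3227 CPM in the CD8+ libraries. In the 4 retroviral libraries they reached only 1.69 to 4.73 CPM, and the T cell receptor genes Cd3e, Cd3d and Cd3g together 19.1 to 213 CPM. There the 4 natural killer (NK) cell genes Ncr1, Klrb1c, Klre1 and Gzma summed to 3711 to 8439 CPM, so these libraries went against their CD8+ T cell label and are called retroviral libraries here. WT Tnv IL-15 replicate 2 held 326 CPM of CD4 lineage genes, the most of any CD8+ library. By Xist and the Y-linked Ddx3y, the CD8+ NC and IL-15 libraries came from females and the CD8+ Tnv IL-7 libraries from males, so sex and IL-7 cannot be told apart in CD8+ Tnv. In Tcm with IL-7 both WT libraries were male and each mutant genotype had 1 library of each sex. By the same genes all CD4+ libraries were male. In the retroviral set both replicate 1 libraries were male (Ddx3y at 138 and 142 CPM) and both replicate 2 libraries female (Xist at 957 and 987 CPM).

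The start of the transcript is shown for 7 members that the results below name, because the TOP tract is the feature the family is known for. Each line holds 30 bases, 15 before and 15 from the annotated RefSeq start (build GRCm38.p6), read on the strand of the gene. Capitals mark a C followed by at least 4 more C or T bases, where that C lies at the start or within 2 bases of it. A run is counted from that C, and pyrimidines before it were left out.
Rps6 (chr4:86857353-86857382, minus strand): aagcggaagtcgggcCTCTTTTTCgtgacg
Rpl28 (chr7:4792950-4792979, plus strand): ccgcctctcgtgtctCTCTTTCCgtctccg
Rpl12 (chr2:32961697-32961726, plus strand): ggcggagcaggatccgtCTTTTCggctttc
Rps27l, first start (chr9:66946071-66946100, plus strand): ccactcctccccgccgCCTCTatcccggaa
Rps27l, other start (chr9:66946398-66946427, plus strand): accatgggcttcagggtcactaacgggcct
Rps9 (chr7:3704026-3704055, plus strand): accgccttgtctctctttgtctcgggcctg
Rps2 (chr17:24720048-24720077, plus strand): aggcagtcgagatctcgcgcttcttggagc
Rpl22l1 (chr3:28805493-28805522, plus strand): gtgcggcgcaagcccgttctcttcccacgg

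Counted from the annotated base, Rps6 and Rpl28 had runs of 9 and 8 pyrimidines, and in both genes pyrimidines also lie directly before that base. The marked run of Rpl12 began 2 bases after the annotated base. That of Rps27l, at the first of its annotated starts, began 1 base after it. For Rps9, Rps2, Rpl22l1 and the other start of Rps27l no such run began within 2 bases of the start. Runs of pyrimidines do lie in the windows of the first 3, and 1 in Rps9 spans the annotated start. RefSeq promoter sequences matched 58 of the 77 members. Counted in this way, a run of at least 5 began at the start in 12 of them (20.7%), against 813 of 27025 genes in all (3.01%), and within 2 bases in 19 (32.8%) against 2863 (10.6%). An annotated start can lie some bases away from the one used in T cells.

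Per length, member mRNAs spanned a wide range. In WT Tnv cells without cytokine, the highest was Rplp1, an acidic protein of the ribosomal stalk, at 5535 ± 144 CPM per kilobase of merged exon (SD, n = 2). Rps3a1 followed at 3351 ± 92.3 and Rps15 at 2907 ± 93.1 CPM per kilobase, and the stalk base Rplp0 stood at 2743 ± 105. The bottom of the order was held by paralogs: Rpl22l1 at 53.4 ± 2.94, Rpl7l1 at 21.6 ± 1.42 and Rps27l at 21.1 ± 4.81 CPM per kilobase. Rpl7l1 and Rps27l did not differ beyond their spread. Of the 77 members, 56 had annotated pseudogenes named after them, 280 in all. Rpl31 and Rps12 had 24 each, and reads of such genes may have been split between near-identical copies.

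Members took 6.2 to 17.6% of all gene counts in CD8+ libraries, 6.35 to 11.2% in CD4+ and 3.69 to 6.33% in the retroviral libraries. Within WT the highest share was that of a Tcm library. The share in Tcm was 16.1 and 12.0% in NC. It was 17.6 and 11.5% in IL-7 culture. Under IL-15 the libraries held 11.5 and 10.1%. The lowest CD8+ shares were those of BBA Tem cells with IL-15, 6.72 and 6.20%. Replicates often differed as a block. The members' median level moved between libraries of a group by 0.01 to 0.79 on the log2 scale, with a median over the 32 groups of 0.21. The widest gap was in WT Tcm with IL-7, where all 77 members were higher in replicate 1, and the wide gaps also included BBA (0.72) and WT (0.53) Tnv with IL-15.

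**Figure D1:**
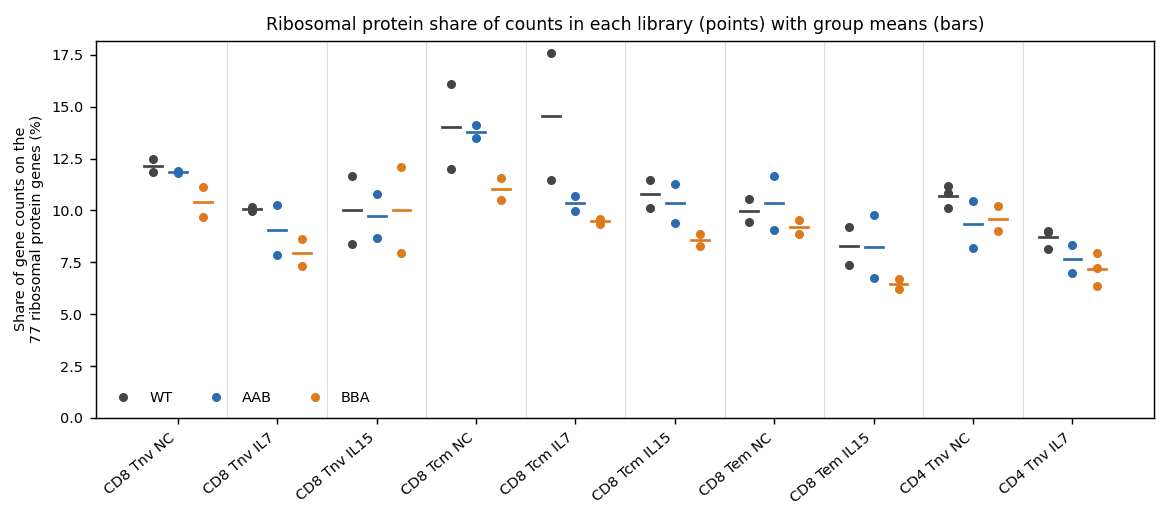
Share of gene counts on the 77 ribosomal protein genes (y axis, %) in each library (points) and its group mean (bars), by CD8+ or CD4+ condition and genotype. WT libraries all lie above BBA libraries in 7 of 10 conditions, while the 2 libraries of WT Tcm with IL-7 lie far apart at 17.6 and 11.5%.

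The members' share was set beside that of other short transcripts. The share of 614 other protein-coding genes with merged exons of at most 1781 bases, the members' median length, moved with the members' share in some comparisons. It was 5.85 and 4.87% in WT Tcm with IL-7, where members held 17.6 and 11.5%. In BBA Tcm with IL-7 it was 4.85 and 4.87%, where members held 9.34 and 9.61%. Under IL-15, WT Tcm had 4.99 and 4.60% against 4.36 and 4.12% in BBA Tcm. It did not follow the members between states: WT Tem NC held 5.16 and 4.72% of short genes and 10.5 and 9.43% of members, against 4.54 and 4.42% and 12.5 and 11.9% in WT Tnv NC. The part of length or RNA quality in the results below was not tested. In bulk samples, more of an mRNA per cell and more cells of a type that holds it cannot be told apart.

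Across genotypes, the clearest difference was between WT and BBA central memory cells cultured with IL-15. Rps2, a protein of the small subunit near the mRNA entry site, stood at 2695 and 2597 CPM in WT, 1768 and 1822 in AAB and 1276 and 1265 in BBA. The genotypes did not overlap, and WT over BBA was 1.07 ± 0.09 (log2 fold change ± SE), a 2.11-fold difference (adjusted p = 0.000360, edgeR quasi-likelihood test with Benjamini-Hochberg adjustment over all genes tested, as for each adjusted p below). Rpl28, a large subunit protein, was at 1235 and 1104 CPM in WT against 731 and 790 in BBA, with no overlap. Rps12 was at 1535 and 1325 CPM against 899 and 931. Rps6, the substrate of the S6 kinases, was at 2386 and 2099 CPM in WT against 1769 and 1599 in BBA, and rose by 0.43 ± 0.13 in WT over BBA (adjusted p = 0.0380).

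In all, 38 of the 77 members (49.4%) were higher in WT than in BBA Tcm with IL-15 at an adjusted p under 0.05 and none was lower. Of all 9856 genes tested, 20.7% were called higher. Only 7 members passed 1.5-fold as well. The median over members was 0.43 and over all genes tested 0.00. After Rps2, the largest differences were those of Rps27l (0.93 ± 0.23), Rps12 (0.66 ± 0.12), Rpl28 (0.64 ± 0.10) and Rps25 (0.62 ± 0.17), with adjusted p of 0.0167, 0.00516, 0.00351 and 0.0270. Both subunits took part: 17 of 31 small and 21 of 46 large subunit genes rose, with medians of 0.43 each. Rpl3, beside the peptidyl transferase centre, rose by 0.50 ± 0.09 (adjusted p = 0.00544), and Rplp0 by 0.33 ± 0.10 (adjusted p = 0.0342). Rpl5 and Rpl11, which bind 5S rRNA and, when free, Mdm2, had values of 0.18 ± 0.14 and 0.41 ± 0.14 and did not pass (adjusted p = 0.345 and 0.0565).

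The count rested on few libraries. Without WT replicate 1, without BBA replicate 1 or without BBA replicate 2, only 8 members passed, and without the filter on low counts all 77 did, at a scaling that also moved the median of all filtered genes by 0.24. B cell genes moved with this comparison: the 5 markers, none at 0 in all of these libraries, summed to 90.3 and 169 CPM in WT, 69.1 and 192 in AAB and 194 and 408 in BBA. Myeloid genes (5 markers) summed to 12.1 and 9.34 CPM in WT and 56.2 and 30.2 in BBA, and Cd8a with Cd8b1 to 2733 and 2414 against 2180 and 2047. Genes of antigen-experienced cells (Cd44, Il2rb, Cxcr3, Eomes, Ccl5) summed to 1897 and 1816 CPM in WT and 1247 and 1046 in BBA. Their part was not tested.

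Rps2 passed the test of WT over BBA in more conditions than any other member. Its fold change was positive in all 10 conditions for WT over BBA, from 0.28 to 1.09, with 4 called. These were CD8+ Tnv NC (0.42 ± 0.08, adjusted p = 0.0329), Tcm IL-15, Tem IL-15 (0.90 ± 0.13, adjusted p = 0.0435) and CD4+ Tnv IL-7 (0.50 ± 0.12, adjusted p = 0.0327). In 8 of the 10, every WT library lay above every BBA library. For other members, among them Rpl13, Rpl13a, Rpl28 and Rps19, this held in 9 of the 10. How often libraries lay apart in this way over all genes was not counted, for BBA or for AAB. WT over AAB was positive for Rps2 in 10 of 10 as well, from 0.14 to 0.63. Every WT library lay above every AAB library in 9 of the 10, but the test passed in Tcm IL-15 alone (0.58 ± 0.09, adjusted p = 0.0152). There AAB was also above BBA by 0.50 ± 0.09 (adjusted p = 0.0227). In Tem with IL-15, Rps2 was at 1804 and 1524 CPM in WT, 1262 and 1120 in AAB and 846 and 944 in BBA. The WT libraries were highest and the BBA libraries lowest. With scaling factors taken from the other genes, or with no filter on low counts, Rps2 in Tem IL-15 was no longer called (0.92 and 0.99). Leaving out any 1 of the 4 libraries compared ended the Rps2 call in Tnv NC, in Tem IL-15 and, in Tcm IL-15, for WT over AAB and AAB over BBA. In CD4+ cells leaving out WT replicate 1 or 2 or BBA replicate 1 or 3 did so. For WT over BBA in Tcm IL-15 it held in each of these fits.

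**Figure D2:**
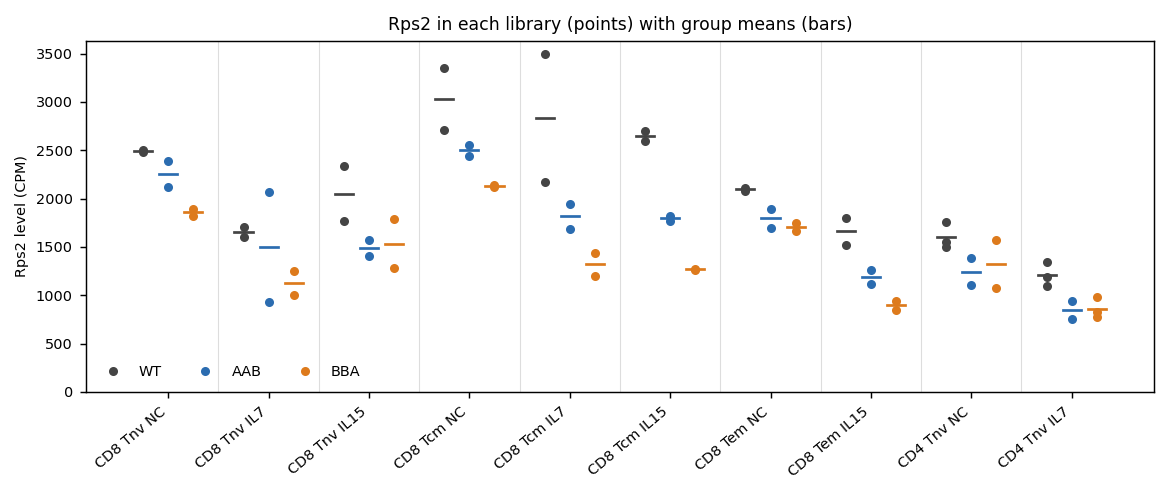
Level of Rps2 (y axis, CPM) in each library (points) with group means (bars), by condition and genotype. In Tcm with IL-15 the WT libraries sit at 2695 and 2597, the AAB libraries at 1768 and 1822 and the BBA libraries at 1276 and 1265 CPM.

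In naive CD8+ cells without cytokine, 7 members were higher in WT than in BBA and none was lower, against 2.49% of genes called higher in this comparison. Rpl28 was at 1291 and 1254 CPM in WT, 1207 and 1279 in AAB and 937 and 898 in BBA, a difference from BBA of 0.47 ± 0.07 (adjusted p = 0.0162). Rpl13a, a large subunit protein also known for silencing interferon-induced transcripts, was at 3381 and 3361 CPM in WT against 2575 and 2384 in BBA (0.44 ± 0.08, adjusted p = 0.0309). Neither gene's WT and BBA libraries overlapped. The median over members was 0.26. Leaving out WT replicate 1, WT replicate 2 or BBA replicate 2 left 0 members called, and leaving out BBA replicate 1 gave 15.

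Naive CD8+ cells with IL-7 had a larger median, 0.39, but a single member passed, against 1.56% of all genes. There 37 members had an unadjusted p under 0.05 and DESeq2 called 24. Leaving out any 1 of the 4 libraries left 0 called. In naive CD8+ cells with IL-15 the median was -0.03 and no member passed, while 10.2% of all genes did in either direction. DESeq2 called 0 members there too, and 0 had an unadjusted p under 0.05. The libraries spread widely: Rps6 was at 2523 and 1693 CPM in WT and at 2764 and 1572 in BBA, so that WT lay within the range of BBA. WT replicate 2 held 326 CPM of CD4 lineage genes against 11.2 in WT replicate 1, and the part of this was not tested. Without the filter on low counts the median became 0.32, beside a shift of 0.31 in the median of all filtered genes. Relative to that shift the members again stood near 0.

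In central memory cells without cytokine, the members' median was 0.39 with 77 of 77 positive, but none passed the test. There 20 had an unadjusted p under 0.05, DESeq2 called 4, and 0.283% of all genes passed. With IL-7 the median was 0.75, the largest of the 10 conditions, and again none passed. There 63 had an unadjusted p under 0.05 and DESeq2 called 53. In edgeR, 3.08% of all genes passed at an adjusted p under 0.05. WT replicate 1 and replicate 2 were then 3496 and 2170 CPM for Rps2, against 1442 and 1196 CPM in BBA. When WT replicate 2 was left out, 77 members were called, without WT replicate 1 there were 21, and without either BBA library none. The B cell markers summed to 41.3 and 18.2 CPM in WT and 261 and 151 in BBA. Genes of antigen-experienced cells summed to 2729 and 2230 CPM in WT and 900 and 1093 in BBA. The part of either list was not tested. Effector memory cells had a median of 0.10 without cytokine with no member called, 1 at an unadjusted p under 0.05 and 0 by DESeq2, against 0.208% of genes. With IL-15 their median was 0.39 and Rps2 alone passed, against 1.24% of genes higher.

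**Figure D3:**
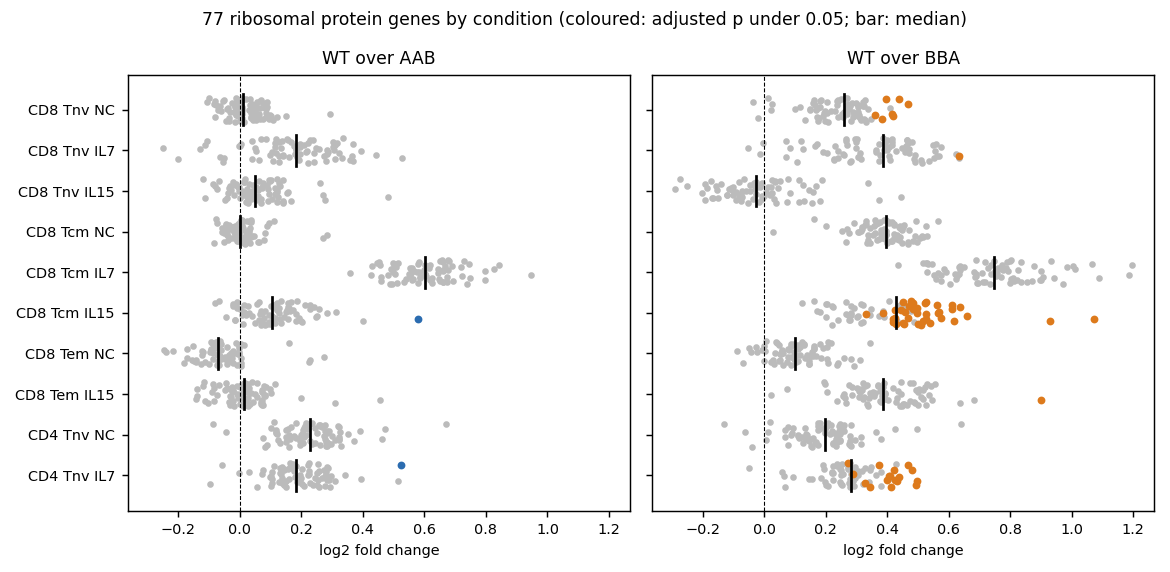
Log2 fold change (x axis) of each of the 77 ribosomal protein genes (points, coloured at an adjusted p under 0.05) in WT over AAB and WT over BBA, by condition (y axis), with the median as a bar. For WT over BBA 9 of 10 medians lie above 0, with CD8+ Tnv IL-15 at -0.03, and 38 members are coloured in Tcm IL-15.

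Over the 10 conditions, 64 of the 770 member tests of WT over BBA passed as higher in WT and 0 as lower, 38 of them in Tcm IL-15. Over all genes in these 10 comparisons, 3.67% of tests passed as higher and 3.69% as lower. The difference between Tcm and Tnv with IL-15 was tested as an interaction and passed for 0 of 77 members. The median interaction was 0.44, 2 members had an unadjusted p under 0.05, DESeq2 called 0, and 0.194% of all genes passed. The larger WT over BBA difference in Tcm was therefore not shown to differ from that in Tnv. The same test between IL-15 and NC passed for 0 members in Tnv (2.46% of genes, 0 members at an unadjusted p under 0.05, 0 by DESeq2) and in Tcm (8.35% of genes, 2 members at an unadjusted p under 0.05, 2 by DESeq2).

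Naive CD4+ cells gave the second largest count. With IL-7, 17 members were higher in WT than in BBA and none was lower, against 6.27% of all genes. The median was 0.28 and no member passed 1.5-fold. Rps3a1 was at 2252, 2062 and 2062 CPM in WT, 1831 and 1736 in AAB and 1604, 1614 and 1327 in BBA (0.49 ± 0.09, adjusted p = 0.00951). Rpl13a was at 1937, 2166 and 1876 CPM in WT, 1473 and 1298 in AAB and 1381, 1477 and 1480 in BBA (0.47 ± 0.08, adjusted p = 0.00848). For both genes the WT libraries lay above every mutant library. Rpl29 and Rplp0 rose by 0.48 ± 0.09 and 0.44 ± 0.10 (adjusted p = 0.0124 and 0.0259). Leaving out WT replicate 1 gave 3 members, WT replicate 2 gave 4, BBA replicate 3 gave 5, BBA replicate 1 gave 10 and BBA replicate 2 gave 27. The 5 B cell markers summed to 6.06 to 9.84 CPM in WT and 12.9 to 56.3 in BBA, and their part was not tested. Without cytokine the median was 0.20 and no member passed, with 4 at an unadjusted p under 0.05, 2 by DESeq2 and 1.2% of all genes.

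The CD8+ Tcm IL-15 and CD4+ Tnv IL-7 comparisons share no library. Of the 38 and 17 members higher in WT than in BBA there, 16 were shared, 16 of 38 in Tcm and 16 of 17 in CD4+ cells. As 38 of all 77 members were called in Tcm, part of this overlap would arise in any case, and its excess was not tested. The shared members included the small subunit genes Rps2, Rps3a1, Rps7, Rps16, Rps19 and Rps25 and the large subunit genes Rpl8, Rpl13a, Rpl28 and Rplp0.

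For WT over AAB, 2 member tests passed over all conditions. In Tcm with IL-15 only Rps2 passed (4.88% of genes higher), and in CD4+ Tnv with IL-7 only Rpl13a (0.52 ± 0.09, adjusted p = 0.0456, 0.659% of genes higher). Each of these calls was lost when any 1 library of its comparison was left out. No member was called in the other 8 conditions. Member medians were 0.01 in CD8+ Tnv NC (0.164% of all genes called), 0.18 in Tnv IL-7 (0.256%), 0.05 in Tnv IL-15 (0.908%), 0.00 in Tcm NC (0.039%), -0.07 in Tem NC (0.0198%), 0.01 in Tem IL-15 (0.0199%) and 0.23 in CD4+ Tnv NC (0.355%). In these 7, from 0 to 12 members had an unadjusted p under 0.05, and DESeq2 called 1 in Tnv IL-7, 2 in CD4+ Tnv NC and 0 in the others. In Tcm IL-7, where the spread between WT libraries was widest, the median was 0.60. There no member passed, 38 had an unadjusted p under 0.05 and DESeq2 called 0, with 0.0589% of all genes called. Without WT replicate 2, however, 76 members were called. AAB over BBA was tested with IL-15: 1 member passed in Tcm, Rps2 (5.11% of genes higher; DESeq2 called 24), and 0 in Tnv (0.0699% of genes, 0 at an unadjusted p under 0.05, 0 by DESeq2).

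Other genes of the ribosome pathway were followed as lists. In Tcm with IL-15, 25 of 25 genes of ribosome assembly and rRNA synthesis were higher in WT than in BBA, with a median of 1.28 against 0.43 for the members. Fbl, the methyltransferase of box C/D snoRNPs, rose by 1.57 ± 0.09 (adjusted p = 0.000116) and Nop56 by 1.45 ± 0.10 (adjusted p = 0.000147). Myc rose by 2.37 ± 0.15 (adjusted p = 0.000121). Of the chaperones that escort single ribosomal proteins, 5 of 7 rose, among them Heatr3, which imports Rpl5 (1.26 ± 0.12, adjusted p = 0.000535). Of 16 other mRNAs known for a TOP tract, among them elongation and initiation factors, 9 rose. Of the 77 mitochondrial ribosomal proteins, 39 rose and 1 fell. Of all 9856 genes tested in this comparison, 2043 (20.7%) were called higher and 1779 lower.

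In Tnv with IL-15, 13 of 25 assembly genes rose in WT over BBA and Myc rose by 2.60 ± 0.22 (adjusted p = 0.00177), at 385 and 299 CPM in WT against 51.7 and 63.1 in BBA. Of 10021 genes tested there, 299 were called higher. There 0 of 77 members and 0 of 16 TOP mRNAs passed (also 0 of 16 at an unadjusted p under 0.05). In CD4+ cells with IL-7, 14 of 25 assembly genes and 8 of 16 TOP mRNAs rose in WT over BBA, against 6.27% of all genes.

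Within WT, cytokine culture went with lower ribosomal protein mRNA in naive cells. In CD4+ Tnv, 58 members were lower with IL-7 than without cytokine and 2 were higher, against 17% and 18.3% of all genes. Rpsa, the small subunit protein also known as the laminin receptor, was at 3361, 3717 and 3692 CPM in NC and 2392, 2398 and 2084 with IL-7, a fall of 0.65 on the log2 scale (SE 0.08, adjusted p = 0.000347). Rpl12, of the stalk base, was at 2566, 2771 and 2885 CPM against 1831, 1795 and 1540 (-0.68 ± 0.09, adjusted p = 0.000454). The groups overlapped for neither gene. The median over members was -0.35, and 4 of the falls passed 1.5-fold. In all 60 members were called, 35 without NC replicate 2 and 29 without IL-7 replicate 3. Rpl24 went the other way, at 506, 569 and 605 CPM in NC and 727, 662 and 661 with IL-7 (0.28 ± 0.09, adjusted p = 0.0379).

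In CD8+ Tnv, 23 members were lower with IL-7 and 1 was higher, against 18.2% and 18% of all genes. The median was -0.29, and 13 of the falls passed 1.5-fold. Rpl12 was at 3474 and 3222 CPM in NC and 1856 and 1753 with IL-7 (-0.90 ± 0.18, adjusted p = 0.00974). Rpl13 was at 3206 and 3390 against 1879 and 1943 CPM (-0.80 ± 0.15, adjusted p = 0.00765), and Rps14 and Rpl41 fell by 0.85 and 0.79. Fau, which encodes a ribosomal protein fused to a ubiquitin-like sequence, fell as well, from 1838 and 1728 to 921 and 1018 CPM (-0.89). Xist was at 873 and 994 CPM in the NC and 2.19 and 5.27 CPM in the IL-7 libraries, which differed in sex. The 5 B cell markers summed to 53.3 and 133 CPM in NC and 15.4 and 8.69 with IL-7, and the 5 myeloid markers to 25.8 and 48.0 against 5.03 and 6.73, and their part was not tested. The count fell to 5 and 3 members without NC replicate 1 and 2, and to 2 and 1 without IL-7 replicate 1 and 2.

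The CD8+ and CD4+ comparisons share no library. Xist was at most 0.498 CPM in the CD4+ WT libraries, and the part of sex in the CD8+ comparison was not tested. Of the 23 CD8+ and 58 CD4+ members that fell, 20 were shared, 20 of 23 and 20 of 58. As 58 of all 77 members fell in CD4+ cells, most of any 23 members would be shared. Whether the overlap exceeded that was not tested. Myc rose with IL-7 in both, by 0.93 ± 0.18 in CD8+ (adjusted p = 0.00949) and 0.52 ± 0.12 in CD4+ cells (adjusted p = 0.00921). Assembly genes were mixed, with 6 of 25 higher and 3 lower in CD8+ cells and 3 higher and 12 lower in CD4+ cells. Of all genes, 18% were higher and 18.2% lower in CD8+ cells, and 18.3% and 17% in CD4+ cells.

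**Figure D4:**
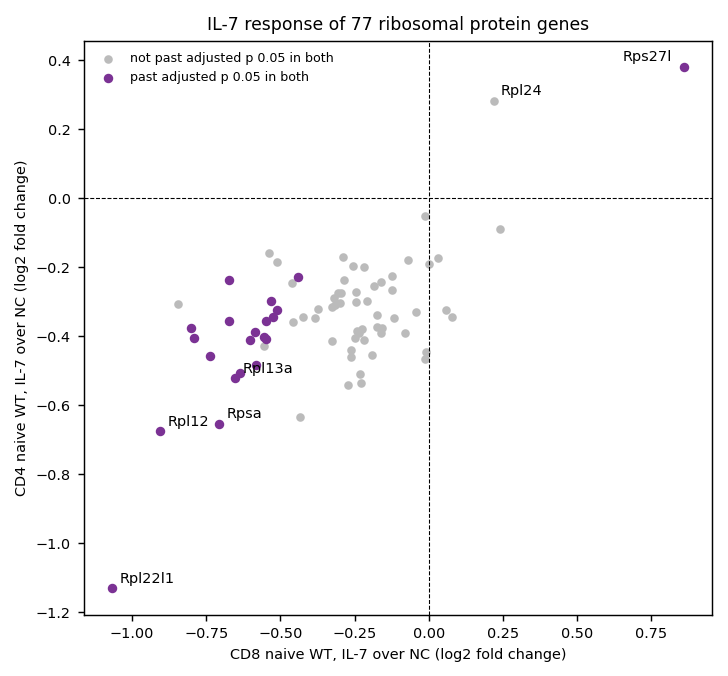
Log2 fold change with IL-7 over no cytokine of the 77 ribosomal protein genes in WT naive CD8+ cells (x axis) and WT naive CD4+ cells (y axis), with genes past an adjusted p of 0.05 in both in purple. Most points lie below 0 on both axes, Rpl22l1 is lowest on both at -1.07 and -1.13, and Rps27l is highest on both at 0.86 and 0.38.

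With IL-15, the naive CD8+ median was -0.34 and 1 member passed as lower, Rpl22l1, against 4.92% of genes. DESeq2 called 12 lower and 1 higher. IL-15 replicate 2 was the only IL-15 library when replicate 1 was left out. It held 326 CPM of CD4 lineage genes against 11.2 in replicate 1, and 1210 against 2081 CPM of Cd8a with Cd8b1. The part of this in the counts was not tested. Without IL-15 replicate 1, 74 members were called, without IL-15 replicate 2 there were 6, and without either NC library 0. In Tcm the median was 0.06 in IL-7 culture. Under IL-15 it was -0.46. No member passed in either, with 0.381% and 0% of all genes called. At an unadjusted p under 0.05 stood 1 member in each, and DESeq2 called 0 in each. In Tem with IL-15 the median was -0.28 with 0 called, 20 at an unadjusted p under 0.05 and 16 by DESeq2, against 1.53% of genes. There 15 members were called without IL-15 replicate 1 and 2 without IL-15 replicate 2.

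Of the paralogs under cytokine, Rpl7l1 was higher in 5 of 6 comparisons, from -0.09 to 0.29, with none called, and Rpl36al had a median of -0.29 with 2 called lower. Rpl22l1 was at 110 and 102 CPM in WT CD8+ Tnv without cytokine, 53.0 and 49.1 with IL-7. Under IL-15 it stood at 65.0 and 44.6 CPM. It fell by 1.07 ± 0.17 with IL-7 (adjusted p = 0.00448) and by 0.95 ± 0.17 with IL-15 (adjusted p = 0.0188), with no overlap. In CD4+ Tnv it was at 78.1, 84.0 and 92.8 CPM in NC and 50.1, 34.5 and 34.0 with IL-7, a fall of 1.13 ± 0.15 (adjusted p = 0.000501). Its fold change was negative in all 6 cytokine comparisons. Its parent Rpl22, which restrains Rpl22l1 in T cells, was at 528 and 494 CPM in CD8+ Tnv NC and 433 and 435 with IL-7 (-0.25 ± 0.17, adjusted p = 0.290).

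Rps27l is a target of p53. With IL-7, 70 of 77 members had negative fold changes in CD8+ Tnv and 75 of 77 in CD4+ Tnv, and Rps27l had a positive one in both. It was at 20.0 and 14.4 CPM in CD8+ Tnv without cytokine and 32.1 and 30.5 with IL-7, and rose by 0.86 ± 0.23 (adjusted p = 0.0274). In CD4+ Tnv it was at 13.9, 17.2 and 17.5 CPM and then 22.1, 20.7 and 21.2 (0.38 ± 0.12, adjusted p = 0.0374), and the groups overlapped in neither lineage. It was higher with cytokine in 6 of 6 comparisons, from 0.38 to 0.86, and passed in 2. The CD4+ call was lost with DESeq2, with no filter on low counts, and without NC replicate 1 or 2 or any IL-7 library, at 0.28 to 0.42, and the CD8+ call was lost without NC replicate 2 or either IL-7 library. In Tcm with IL-15 it was at 49.5 and 33.1 CPM in WT against 23.8 and 20.2 in BBA. Its parent Rps27 lay under the level used to choose members, at 8.42 and 10.3 CPM in CD8+ Tnv NC and 1.59 and 2.06 with IL-7, and may share reads with near-identical copies.

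**Figure D5:**
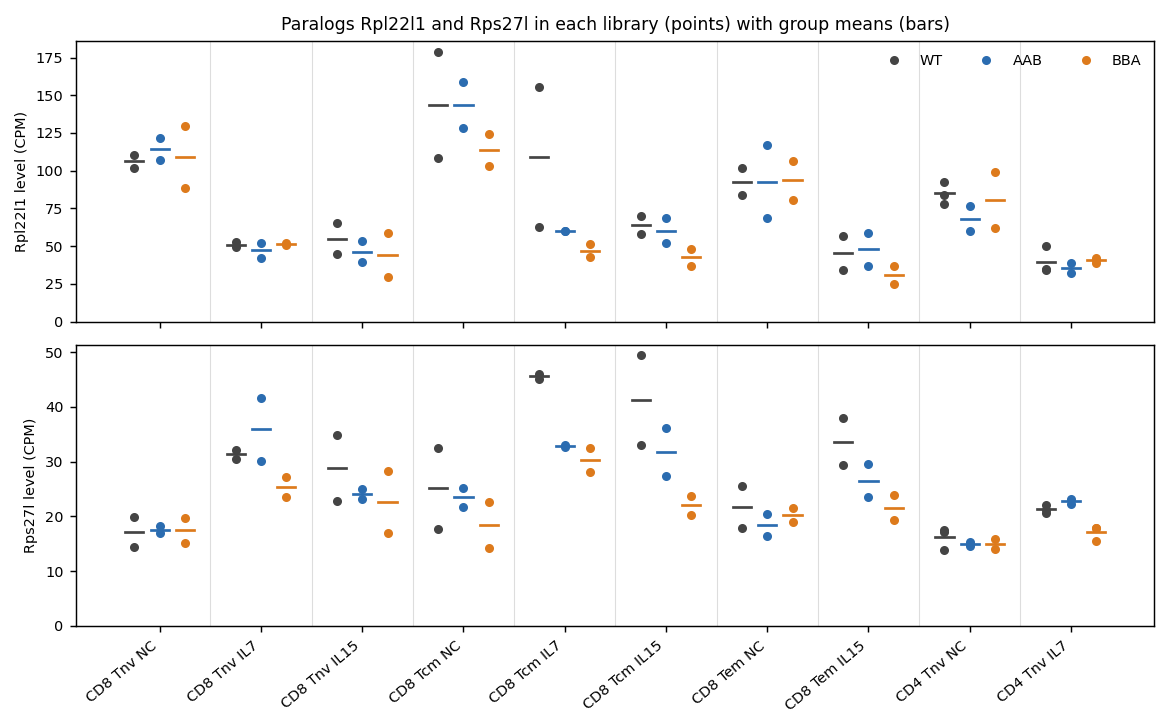
Levels of Rpl22l1 (top, CPM) and Rps27l (bottom, CPM) in each library (points) with group means (bars), by condition and genotype. In WT CD8+ Tnv, Rpl22l1 goes from 110 and 102 in NC to 53.0 and 49.1 with IL-7, and Rps27l from 20.0 and 14.4 to 32.1 and 30.5.

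Between states of WT CD8+ cells without cytokine, no member passed. Tcm over Tnv had a median of 0.23 (2.84% of genes called, 0 members at an unadjusted p under 0.05, 0 by DESeq2). Without Tcm replicate 2, 9 members were called. Tem over Tnv had a median of -0.35 (8.82% of genes called, 10 members at an unadjusted p under 0.05, 4 by DESeq2).

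In the retroviral libraries, Stat5a was at 59.4 and 60.5 CPM with S5a and 8.46 and 3.22 with Ctl, as the labels say. Rps9, a small subunit protein, was at 683 and 840 CPM with S5a and 1240 and 1224 with Ctl, and fell by 0.68 ± 0.15 (adjusted p = 0.0433). Rps19, a small subunit protein mutated in Diamond-Blackfan anaemia, was at 198 and 232 against 342 and 334 CPM and fell by 0.64 ± 0.13 (adjusted p = 0.0343). The groups did not overlap for either, and these were the only 2 members called, against 4.53% of genes called lower. The median was -0.44 with 77 of 77 negative, 42 members had an unadjusted p under 0.05 and DESeq2 called 19. Without S5a replicate 1 no member was called, without Ctl replicate 1 there was 1 and without S5a replicate 2 there were 6. The 4 NK genes summed to 7876 and 8439 CPM with S5a against 4075 and 3711 with Ctl, and the 3 T cell receptor genes to 19.1 and 44.7 against 105 and 213. Among the NK genes Gzma differed most, at 5758 and 6282 against 2033 and 1873 CPM. Klrb1c and Klre1 were higher with S5a too, while Ncr1 was lower, at 1118 and 1327 against 1460 and 1405 CPM. The 5 B cell markers summed to 9.29 and 25.7 CPM with S5a against 146 and 89.9 with Ctl. The 5 myeloid markers summed to 1296 and 1151 CPM with S5a against 586 and 454 with Ctl. Of these only Itgam was higher with S5a, at 1258 and 1113 against 291 and 314 CPM. Lyz2 (22.3 and 23.4 against 200 and 89.2) and Csf1r (8.45 and 9.25 against 71.5 and 34.3) were lower with S5a. So were Cd68 (6.76 and 4.95 against 17.7 and 14.5) and Cd14. Their part in the difference was not tested.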

How the data were processed

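The deposited values are read counts per gene as the authors made them, not normalized, in 1 table for each of the CD8+, CD4+ and retroviral sets. By their methods, poly(A)+ RNA was read single-end, aligned with TopHat2, assembled with Cufflinks and counted with HTSeq. The paper names build mm10 and the labels mm9. The annotation and the strand setting were not given in the sources used here. HTSeq leaves out reads with several equally good positions, so genes with near-identical copies can be undercounted. Lines of the retroviral table that name no gene took 67.0 to 68.4% of its reads and stayed out of totals and tests.

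Groups came from the labels, and 67 of 69 libraries were used. In the other 2 the labels disagreed on the cytokine. The study's methods describe replicates as separate mice over several trials, but the labels tie no library to a mouse or trial, and p-values measure the spread between these libraries. Levels (CPM) used TMM factors from genes with a mean of at least 10 CPM, within each table. Fold changes came from edgeR 4.0.16 (R 4.3.3; TMM, quasi-likelihood test in its older form), on the 3 genotypes of a condition or the WT libraries of the conditions compared, with Benjamini-Hochberg adjustment over all genes tested. The Jaccard filter of HTSFilter was re-implemented, with 100 thresholds from 1 to 200 normalized counts and loess span 0.3. It kept 9412 to 10768 genes at thresholds of 40.2 to 117.1, and all 77 members in every comparison. A member was called at an adjusted p under 0.05, at any fold, where the authors also asked for 1.5-fold. Differences between conditions in a genotype effect were interaction terms. The code was tested on simulated data.

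The members and lists were chosen with earlier results of these data known. Named are stalk proteins, paralogs and members with roles outside the ribosome, up to 5 called members per direction and comparison with the largest fold change and no overlap between libraries, and the pathway lists. Some genes that this rule takes are not reported here. The members named as highest per length or as shared between comparisons were picked after their values were seen. Alternatives were DESeq2 1.42.0, its size factors, TMM without the members, no filter, the replicate number as a block (not in the retroviral set) and leaving out each library. Shares given for all genes are those at an adjusted p under 0.05 in the edgeR fits described above. They were not computed for an unadjusted p, for DESeq2 or for the other alternatives. Mitochondrial genes as a separate total were not used, as the tables hold none.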

Additional observations from a re-analysis of the deposited data

Results flagged for a closer look

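Rps27a, which encodes a ribosomal protein fused to ubiquitin, had a log2 fold change with IL-7 over no cytokine of 0.057 in WT CD8+ Tnv and -0.3245 in WT CD4+ Tnv. The libraries of the conditions overlapped in neither lineage. They held 1152 and 1067 CPM without and 1168 and 1160 with IL-7 in CD8+, against 1067, 1241 and 1209 without and 993, 961 and 864 with IL-7 in CD4+. The CD8+ value was small and not called, so no rise was shown there, and the CD8+ libraries compared also differed in sex. The difference between lineages was not tested.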

How the results depend on the processing

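No named member turned its direction under an alternative. The count stayed within 1.5 times its reported value in 216 refits and moved further in 108. The 216 include refits of comparisons with no member called in either fit. Shares of all genes called were not computed for the refits, so the counts below have no such share beside them. Where members were called, the count moved in most fits that left out 1 library, except for IL-7 over NC in CD4+ Tnv. Named members stayed on the same side of the threshold in 256 refits and fell short of it in 91. The effect of depth was not tested.

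With no filter on low counts the TMM factors changed. The median of the filtered genes then moved by -0.0889 to 0.3146 on the log2 scale, by over 0.1 in 7 comparisons, and the members' median turned from -0.03 to 0.32 (Tnv IL-15, WT over BBA), from -0.07 to 0.01 (Tem NC, WT over AAB), from -0.08 to 0.17 (Tnv IL-15, AAB over BBA) and from -0.02 to 0.20 (Tcm, IL-15 minus NC). With no filter, members called numbered for WT over BBA 50 in CD8+ Tnv NC, 28 in Tnv IL-7, 2 in Tnv IL-15, 76 in Tcm IL-7, 77 in Tcm IL-15, 0 in Tem IL-15, 3 in CD4+ NC and 27 in CD4+ IL-7. For WT over AAB they numbered 1 in Tnv NC, 1 in Tnv IL-7, 35 in Tcm IL-7 and 2 in CD4+ NC, for AAB over BBA 69 in Tcm IL-15 and for S5a over Ctl 35. For IL-15 over NC they numbered 58 in Tnv, 1 in Tcm and 1 in Tem, for IL-7 over NC 1 in Tcm, for Tem over Tnv 22, and for the Tcm interaction of IL-15 minus NC 2.

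DESeq2 called for WT over BBA 34 members in Tnv NC, 24 in Tnv IL-7, 4 in Tcm NC, 53 in Tcm IL-7, 3 in Tem IL-15, 2 in CD4+ NC and 38 in CD4+ IL-7. It called for WT over AAB 1 in Tnv IL-7, 2 in CD4+ NC and 3 in CD4+ IL-7, for AAB over BBA 24 in Tcm IL-15, for S5a over Ctl 19, for IL-15 over NC 13 in Tnv and 16 in Tem, for Tem over Tnv 4 and for the Tcm interaction 2. Its size factors in edgeR gave 1 for that interaction, and TMM without the members gave 0 for Tem IL-15, WT over BBA. These scalings moved the median of all genes by at most 0.0368 and 0.0224.

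The labels' replicate numbers were not shown to pair the samples, and the correlations of same-numbered libraries varied. In CD4+ IL-7, WT against BBA, the 3 pairs had 0.112, 0.226 and 0.0995, and WT against AAB had 0.398 and 0.32. In WT CD4+ Tnv, NC against IL-7, they were -0.0939, 0.573 and 0.572. With 2 libraries in each group both pairs are equal by construction, as at 0.785 in CD8+ Tem IL-15, WT against AAB. Whether the numbers mark true pairs was not tested. In the retroviral set sex followed the replicate number, and no block was fitted there. With the replicate block, members called for WT over BBA numbered 34 in Tnv NC, 16 in Tnv IL-7, 1 in Tcm NC, 67 in Tcm IL-15, 27 in Tem IL-15, 2 in CD4+ NC and 69 in CD4+ IL-7. With the block they numbered for WT over AAB 4 in Tcm IL-15, 2 in CD4+ NC and 3 in CD4+ IL-7, for AAB over BBA 56 in Tcm IL-15, for IL-15 over NC 4 in Tnv and 50 in Tem, for Tcm over Tnv 3, for Tem over Tnv 27, and for the interactions 1 (IL-15, Tcm minus Tnv) and 2 (Tcm, IL-15 minus NC).

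Leaving out 1 library at a time, where a lone sample was assumed to vary like the other groups, members called ranged for WT over BBA from 0 to 15 in Tnv NC, 0 to 0 in Tnv IL-7, 0 to 77 in Tcm IL-7, 8 to 45 in Tcm IL-15, 0 to 0 in Tem IL-15 and 3 to 27 in CD4+ IL-7. For WT over AAB they ranged from 0 to 76 in Tcm IL-7 and were 0 throughout in Tcm IL-15 and CD4+ IL-7, as for AAB over BBA in Tcm IL-15. They ranged from 0 to 6 for S5a over Ctl, 1 to 5 for IL-7 over NC in CD8+ and 29 to 62 in CD4+, 0 to 74 for IL-15 over NC in Tnv, 0 to 15 in Tem, 0 to 9 for Tcm over Tnv and 0 to 2 for the Tcm interaction. Apart from the fewer samples in these fits, the cause of these changes was not tested.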

Other observations

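The 2 CD4+ libraries whose labels disagree on the cytokine, 1 of AAB and 1 of BBA, held 8.90 and 8.67% of their gene counts on the members, respectively. CD4+ Tnv libraries without cytokine held 8.21 and 10.5% in AAB and 9.0 and 10.2% in BBA, and with IL-7 8.32 and 6.97% in AAB and 7.20, 7.96 and 6.35% in BBA. Cd4 was at 996 and 962 CPM in the 2 libraries, against 965 to 1167 without cytokine and 608 to 753 with IL-7. Zbtb7b was at 333 and 342 CPM, against 269 to 338 and 114 to 176. By these 2 genes both libraries lay nearer those without cytokine.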
